A study of Mus musculus with 8 samples.

Results

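The genes described here are the long intergenic noncoding RNAs (lincRNAs) that were expressed in mouse pancreatic cancer cells, compared between cultures with and without an antibody against sonic hedgehog (SHH). They were chosen from the deposited count table as genes of the biotype lincRNA with a mean of at least 1 CPM (counts scaled to a common library total) over all 8 libraries. This rule took 143 of the 1795 lincRNA genes in the table, of which 808 had a count in any library, and the table lists 39179 genes in all. The mean level over all libraries chose the members, so their levels are given as a description, while the comparison of the arms was not part of the choice. The cells were epithelial cancer cells labelled with GFP, from mice of a mixed FVB and B6 background whose alleles include p48Cre, ROSA_rtTAL+ and p53L+. In such mice p48, a promoter of the embryonic and acinar pancreas, drives Cre. Before the sort these cells shared a dish for 72 h with pancreatic stellate cells, a fibroblast-like stromal type, which carried RFP, and dialyzed serum was kept at 0.5%. The SHH-neutralizing antibody was present at 20 µg/mL in 4 cultures, and 4 cultures had no antibody. Both arms share the genotype, the co-culture and the sort for green cells before polyA RNA was sequenced. The labels name no control antibody, call the 4 libraries of an arm biological samples and do not say whether they came from separate cell lines.

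LincRNAs lie between protein-coding genes and have no long reading frame, and many are transcribed, spliced and polyadenylated much like messenger RNAs. A few are abundant and build nuclear structures, such as Neat1 in paraspeckles, Malat1 in nuclear speckles and Xist on the inactive X chromosome. Others are hosts from which small nucleolar RNAs or microRNAs are cut, and many are scarce transcripts that start beside a protein-coding gene and run away from it. SHH is a secreted ligand that pancreatic cancer cells make and to which stellate cells are known to respond.

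The libraries held from 10009711 to 15733280 counts, and every antibody library was deeper than every library without antibody. At such depths 3 counts are worth 0.190 to 0.30 CPM. Replicate 1 without antibody stood apart for these genes, as the plot of lincRNAs by library shows. It held the highest of the 8 values for 65 of the 143 lincRNAs (45.5%) and for 62.9% of the 35 lincRNAs with at least 10 CPM, against 21.5% of the protein-coding genes of at least 1 CPM. The median lincRNA was higher there than the mean of the other 3 libraries without antibody by 0.26 on the log2 scale, while the median protein-coding gene differed by -0.01. Mitochondrial messenger RNAs took 6.21% of the counts in that library and from 3.94% to 4.77% in the other 7. Its part in the results was examined only by leaving it out. All 12 epithelial markers could be tested and 2 were called, where 8.4% of all genes tested were. Cftr (log2 fold change 0.74) and Epcam (0.28) were higher with antibody, and Krt19 (0.18) and Muc1 (0.11) were not called. Of the 12 markers 7 lay above 0 and 5 below. Those below, none called, were Cldn4 (-0.19), Sox9 (-0.12), Krt18 (-0.07), Esrp1 (-0.06) and Cdh1 (-0.05). The 12 summed to 0.775% to 0.827% of the counts with antibody and 0.709% to 0.825% without. Of 26 stellate markers 15 could be tested and 3 were called, against the same 8.4%. Fn1 (log2 fold change -0.18) and Pdgfra (-0.84) were lower and Gas6 (0.42) was higher with antibody. Of the 15 tested 8 lay above 0 and 7 below. Col3a1 (0.66), Pdgfrb (0.61), Col1a2 (0.47) and Col1a1 (0.36) were above 0 and not called. The summed stellate list took 0.146% to 0.156% of the counts with antibody and 0.160% to 0.167% without, and Dcn and Lum had 0 counts. Without Fn1, its most abundant gene, the sums were 0.0193% to 0.0223% and 0.0184% to 0.022%, and in bulk samples fewer cells of a type and less RNA per cell cannot be told apart. The part of stellate RNA in the results was not tested. Of the leukocyte, endothelial and acinar markers 4 could be tested, and edgeR called 0. They were Cela1 (-0.36), Kdr (0.64), Cdh5 (0.14) and Cd68 (0.16). Cdh5 had a mean of 12.6 CPM with antibody and 11.4 CPM without, and Cd68 of 5.05 and 4.59 CPM.

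**Figure D1:**
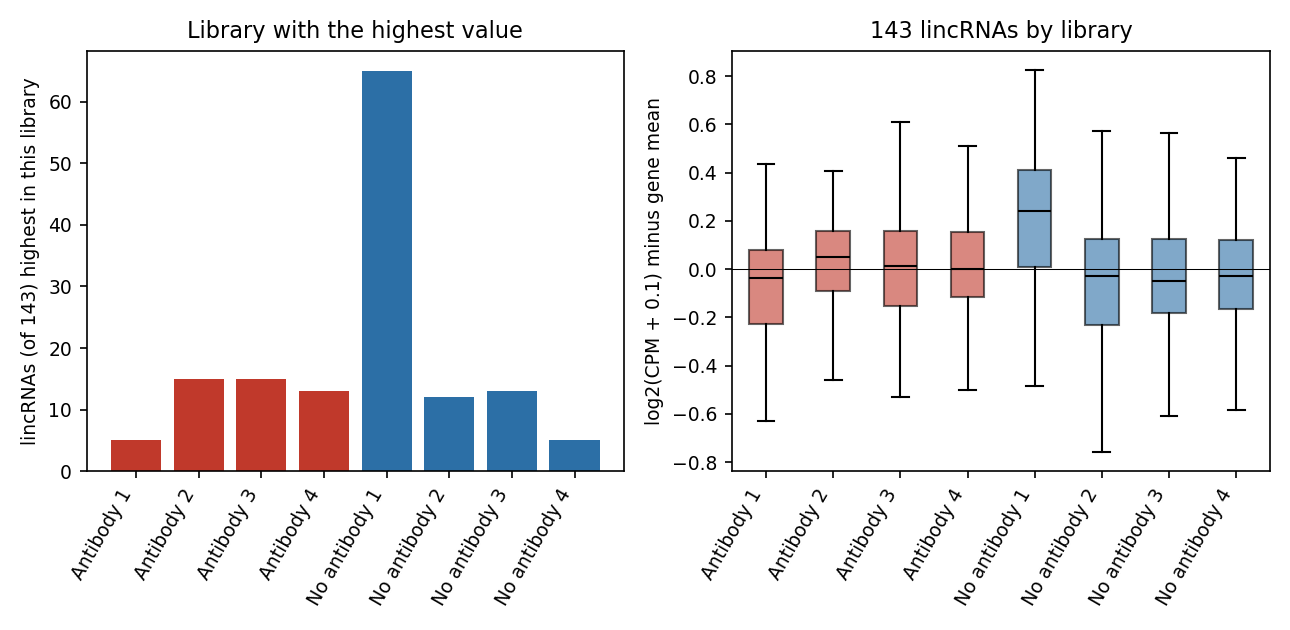
Left, the number of the 143 lincRNAs (y axis) whose highest value was in each library (x axis). Right, boxes of log2(CPM + 0.1) minus the gene's mean over the 8 libraries, with the median, quartiles and whiskers to the farthest point within 1.5 box heights. Replicate 1 without antibody held the highest value for 65 lincRNAs, and the other 7 libraries for 5 to 15 each.

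Most members were scarce. Their median level was 2.67 CPM, against 36.7 CPM for the 11727 protein-coding genes of at least 1 CPM, and on the length-scaled RPKM values the medians were 1.49 and 9.73. Of the 143 lincRNAs 52 lay under 2 CPM, 35 reached 10 CPM and 6 reached 100 CPM. Just inside the level were A330023F24Rik (1.02 CPM), Gm15892 (1.02 CPM) and Gm16845 (1.01 CPM), and just outside it Gm17399 (0.991 CPM), E230013L22Rik (0.978 CPM) and 2700046G09Rik (0.977 CPM). All 143 passed the filter on low counts and were tested, though 8 had a mean under 1 CPM in the antibody arm and 3 in the other arm. Together the lincRNAs took 0.709% ± 0.036 (SD, n = 4) of all counts with antibody and 0.727% ± 0.083 (SD, n = 4) without, with ranges of 0.674% to 0.759% and 0.634% to 0.828% that overlap. Only 4 of them, Gm26924, Xist, Neat1 and Malat1, held 82.3% of the lincRNA counts in either arm. Gm26924 (chr17:39846958-39848788, GRCm38) lies opposite a ribosomal RNA annotation of GENCODE M21 on the same build, and without it the lincRNAs took 0.511% and 0.53% of the counts.

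Few of the lincRNAs passed the test between the arms. At an adjusted p under 0.05 (edgeR's quasi-likelihood test with Benjamini-Hochberg adjustment over all 13626 genes tested) 6 of the 143 were called, which is 4.2%, against 8.4% of all genes tested. In 1 of them, 1010001N08Rik, the level was higher with antibody (all genes higher: 4.53%), and in 5 it was lower (all genes lower: 3.87%). The 5 lower ones were 7530420F21Rik, AI115009, Gm17501, 5830416P10Rik and Gm12603. For 6 lincRNAs (4.2%) the 4 libraries of one arm did not overlap those of the other, against 14.3% of all genes. They were the 5 lower ones and Gm16740, which was at 1.54, 2.41, 1.51 and 1.54 CPM with antibody and 1.01, 1.40, 1.31 and 1.23 CPM without and was not called (log2 fold change 0.51 ± 0.25 (SE), adjusted p = 0.234, edgeR). Without adjustment 19 lincRNAs had a p under 0.05. The median log2 fold change of the lincRNAs, always antibody over no antibody, was -0.02, with 77 below and 66 above 0, and that of all genes tested was -0.00.

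The median standard error of a log2 fold change was 0.20 for the lincRNAs and 0.07 for all genes. At 1 to 2 CPM it was 0.27 for lincRNAs and 0.27 for protein-coding genes, and at 20 CPM and above 0.09 and 0.06. From 10 CPM the median SD within the antibody arm was 6.86% of the mean for lincRNAs and 4.04% for protein-coding genes. Without antibody these were 15.5% and 6.80%. Levels were not matched further within these bands. Among genes of 1 to 2 CPM 1 of 52 lincRNAs was called (1.92%) against 3.73% of protein-coding genes, and among those of 2 to 5 CPM 3 of 42 (7.14%) against 6.95%. From 5 to 20 CPM 0 of 27 lincRNAs were called in edgeR's test, 5 had an unadjusted p under 0.05, and DESeq2 also called 0, against 7.35% of protein-coding genes. At 20 CPM and above 2 of 22 were called (9.09%) against 10.3%. These shares were not tested against each other. For 24 lincRNAs the 95% interval of the fold change lay within 1.25-fold of no change and for 75 within 1.5-fold. For the others a change of that size was not excluded by these libraries. Leaving out replicate 1 without antibody gave 8 calls among the lincRNAs, 4 higher and 4 lower, with 10.8% of all genes called, and the calls added were Malat1, AI480526 and 9030622O22Rik, all higher with antibody. In the arm without antibody replicates 2 and 3 are the most alike (chi-square over degrees of freedom 1.75). Keeping only these 2, by leaving out replicates 1 and 4, gave 10 calls, 7 higher and 3 lower, with 16.3% of all genes called. That choice makes the spread within the arm small, so these calls cannot be read like those of the other fits. Only 2 of the 6 calls, 5830416P10Rik and 7530420F21Rik, were among these 10, and the 8 added were Dio3os, lower, and Xist, Malat1, 1700020I14Rik, Snhg4, 9030622O22Rik, 5430416N02Rik and Gm21781, all higher.

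**Figure D2:**
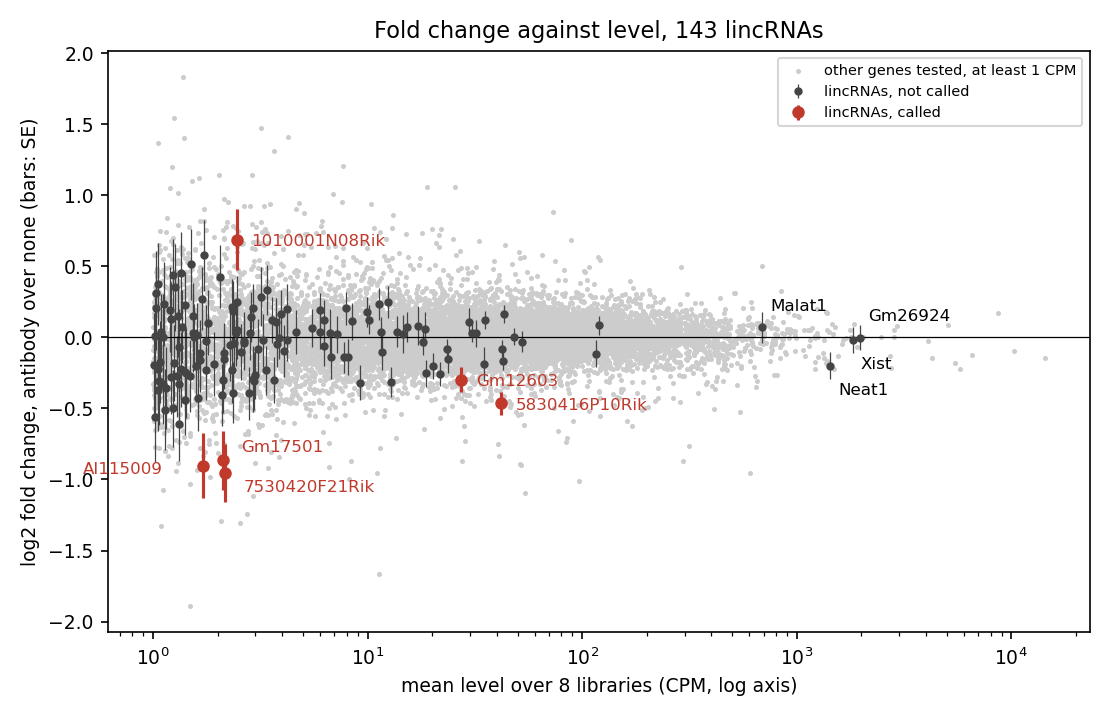
Log2 fold change, antibody over none, against the mean level over 8 libraries in CPM on a log axis, for the 143 lincRNAs with standard errors and for all other tested genes of at least 1 CPM in grey. The 6 called lincRNAs are in red, 3 of the 5 lower ones lie near 2 CPM with log2 fold changes from -0.95 to -0.87, and the abundant Malat1, Xist, Gm26924 and Neat1 lie between 0.07 and -0.20.

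The largest fall among the called lincRNAs was that of 7530420F21Rik, named Ptgs2os in RefSeq (chr1:150074873-150099874, minus strand, GRCm38). It starts 250 bases from Ptgs2, the gene of cyclooxygenase 2, which makes prostaglandins in inflammation, and the pair is transcribed away from each other. Its level was 1.41, 1.46, 1.84 and 1.21 CPM in antibody replicates 1 to 4 and 3.04, 2.80, 2.43 and 3.15 CPM in replicates 1 to 4 without antibody. Every library without antibody lay above every antibody library. The counts behind these levels were 22, 23, 28 and 18 with antibody and 39, 28, 26 and 46 without. The fall was 1.94-fold (log2 fold change -0.95 ± 0.20 (SE), adjusted p = 0.00394, edgeR). Ptgs2 itself reached 371, 399.6, 387 and 494 CPM with antibody and 981, 770.2, 713 and 727 CPM without, again with no overlap. Its fall was 1.93-fold (log2 fold change -0.95 ± 0.09 (SE), adjusted p = 3.82e-07, edgeR). Per length the messenger was far more abundant, with a mean RPKM of 146 against 0.505 for the lincRNA. The call of the lincRNA was kept when each library was left out in turn. Thinning all libraries to the smallest total, in a single random draw, lost it (adjusted p = 0.0586, edgeR).

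Gm17501 (chr3:145650312-145652093, plus strand) starts 327 bases from Cyr61, which encodes the secreted matrix protein CCN1, and points away from it. It was at 1.41, 1.33, 1.25 and 2.01 CPM with antibody and 2.96, 2.60, 2.53 and 2.80 CPM without. The arms did not overlap, and the highest antibody library, replicate 4, was still below the lowest library of the other arm. The counts were 22, 21, 19 and 30 with antibody and 38, 26, 27 and 41 without. Its level fell 1.82-fold (log2 fold change -0.87 ± 0.21 (SE), adjusted p = 0.0100, edgeR). Cyr61 reached 232, 186, 160.5 and 262 CPM with antibody and 449, 359, 369 and 357 CPM without. As for the lincRNA, antibody replicate 4 was the highest library of its arm and replicate 1 the highest without antibody. In the Ptgs2 pair the order differed. Antibody replicate 4 was the highest of its arm for Ptgs2 (494 CPM) and the lowest for 7530420F21Rik (1.21 CPM). Without antibody the highest was replicate 1 for Ptgs2 (981 CPM) and replicate 4 for 7530420F21Rik (3.15 CPM). Cyr61 fell 1.83-fold (log2 fold change -0.87 ± 0.10 (SE), adjusted p = 7.48e-06, edgeR). Gm17501 kept its call in each fit without 1 library. Thinning the libraries to the smallest total, in a single random draw, lost it (adjusted p = 0.0662, edgeR). So did leaving out replicates 1 and 4 without antibody (0.0585).

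The windows from 250 bases before to 50 bases after the start of both lincRNAs (RefSeq, GRCm38.p6) are shown because each is also part of the start region of its protein-coding neighbour. The Ptgs2os window (chr1:150099825-150100124, minus strand) shares 256 of its 300 bases with the Ptgs2 window, read on the other strand. The Gm17501 window (chr3:145649827-145650126, plus strand) rests on a RefSeq start 235 bases from the listed one and shares 191 bases with the Cyr61 window. Capitals mark the E-box CACGTG in the first and the TEAD motif GGAATG in the second, which lie in the shared stretch and so in the windows of both genes of a pair.
7530420F21Rik (Ptgs2os): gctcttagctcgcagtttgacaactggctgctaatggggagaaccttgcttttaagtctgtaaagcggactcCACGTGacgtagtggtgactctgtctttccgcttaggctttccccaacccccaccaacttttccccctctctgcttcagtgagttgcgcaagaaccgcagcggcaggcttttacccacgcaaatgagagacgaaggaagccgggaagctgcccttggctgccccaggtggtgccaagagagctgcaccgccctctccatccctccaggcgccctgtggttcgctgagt
Gm17501: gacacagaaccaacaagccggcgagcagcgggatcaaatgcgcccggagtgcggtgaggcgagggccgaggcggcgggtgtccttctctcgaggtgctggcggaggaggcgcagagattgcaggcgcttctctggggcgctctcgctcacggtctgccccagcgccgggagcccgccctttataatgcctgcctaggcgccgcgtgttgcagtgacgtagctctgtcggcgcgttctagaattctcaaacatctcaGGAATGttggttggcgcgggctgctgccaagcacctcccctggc
The E-box lies 178 bases before the Ptgs2os start and 16 bases after the RefSeq start of Ptgs2. The listed start of Ptgs2, chr1:150100124 on the plus strand, differs from this RefSeq start. It lies beyond the Ptgs2 window (chr1:150099781-150100080), so by the listed start the E-box lies before Ptgs2. The TEAD motif lies 6 bases after the Gm17501 start and 103 bases before that of Cyr61. Neither window holds the AP-1 letters TGANTCA or the full CRE letters TGACGTCA. A match of letters describes the window and says nothing of binding.

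AI115009 (chr3:152666913-152681432, plus strand) lies antisense over the start of Ak5, an adenylate kinase gene, and is typed as antisense in GENCODE M21. Its level was 1.09, 1.46, 1.25 and 1.01 CPM with antibody and 2.57, 1.60, 2.53 and 2.26 CPM without. The arms were apart by little, since antibody replicate 2 and replicate 2 without antibody differed by 1.46 against 1.60 CPM. It fell 1.87-fold (log2 fold change -0.90 ± 0.23 (SE), adjusted p = 0.0153, edgeR). Ak5 reached 65.0, 61.0, 58.6 and 60.2 CPM with antibody and 63.8, 76.5, 75.7 and 84.8 CPM without. Replicate 1 without antibody lay among the antibody libraries for Ak5 and at the top for AI115009. Ak5 fell 1.23-fold (log2 fold change -0.30 ± 0.07 (SE), adjusted p = 0.00649, edgeR). The call of AI115009 was lost without antibody replicate 4 (adjusted p = 0.0563) and when replicates 1 and 4 without antibody were both left out (0.0896), and the strand setting of the counting is not given in the sources used here. For Xist and Tsix, another overlap of opposite strands, Tsix had 0 to 2 counts in a library where Xist had 15360 to 30481.

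5830416P10Rik, named Mirt1 in RefSeq for its link to myocardial infarction (chr19:53441212-53464796, minus strand), was the most abundant of the called lincRNAs. It was at 33.7, 33.1, 36.1 and 38.3 CPM with antibody and 59.5, 45.1, 44.4 and 45.3 CPM without. The 4 antibody libraries were all lower than the 4 others, and replicate 1 without antibody lay far above the rest of its arm. It fell 1.38-fold (log2 fold change -0.46 ± 0.08 (SE), adjusted p = 0.00063, edgeR). This call was made in all 20 alternative fits, with log2 fold changes from -0.51 to -0.35 and adjusted p from 4.65e-10 to 0.0314, and without replicate 1 of the other arm its value was -0.35 (adjusted p = 0.000253). 4833407H14Rik, a lincRNA on the opposite strand within it, had 1.28 ± 0.266 CPM with antibody and 1.55 ± 0.619 CPM without (SD, n = 4) and was not called (log2 fold change -0.24 ± 0.28 (SE), adjusted p = 0.677, edgeR). The nearest protein-coding gene, Smndc1, was 50639 bases away and was not called either (log2 fold change -0.04 ± 0.06).

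Gm12603, named Wincr1 in RefSeq and known as a WNT-induced RNA (chr4:89050308-89084614, plus strand), showed the smallest of the called falls. Its level was 25.8, 25.2, 22.9 and 24.5 CPM with antibody and 36.7, 27.1, 26.7 and 29.8 CPM without. The arms did not overlap, with replicate 1 without antibody again the highest. It fell 1.23-fold (log2 fold change -0.30 ± 0.09 (SE), adjusted p = 0.0345, edgeR). Mtap, the nearest protein-coding gene at 52508 bases, was not called (log2 fold change -0.02). The call of Gm12603 was lost in 6 of the 8 fits without 1 library, those without any 1 antibody library and without replicate 1 or 4 of the other arm, with adjusted p of 0.0501 to 0.123. It was then -0.19 on the log2 scale without replicate 1.

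The start windows of the 3 other lincRNAs that were lower are shown beside the 2 above, since none of them is shared with a protein-coding start within 1000 bases. They are chr19:53464747-53465046, minus strand for 5830416P10Rik, chr3:152666663-152666962, plus strand for AI115009 and chr4:89050057-89050356, plus strand for Gm12603 (RefSeq, GRCm38.p6). Capitals mark the AP-1 letters TGANTCA in the first, 140 bases before the start, and the TEAD letters GGAATG in the second, 32 bases after it.
5830416P10Rik (Mirt1): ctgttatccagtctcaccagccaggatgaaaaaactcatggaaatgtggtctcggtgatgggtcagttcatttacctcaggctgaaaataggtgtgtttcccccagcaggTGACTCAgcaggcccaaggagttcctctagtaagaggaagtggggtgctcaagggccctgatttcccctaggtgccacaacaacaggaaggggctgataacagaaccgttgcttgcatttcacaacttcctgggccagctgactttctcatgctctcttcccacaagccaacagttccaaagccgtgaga
AI115009: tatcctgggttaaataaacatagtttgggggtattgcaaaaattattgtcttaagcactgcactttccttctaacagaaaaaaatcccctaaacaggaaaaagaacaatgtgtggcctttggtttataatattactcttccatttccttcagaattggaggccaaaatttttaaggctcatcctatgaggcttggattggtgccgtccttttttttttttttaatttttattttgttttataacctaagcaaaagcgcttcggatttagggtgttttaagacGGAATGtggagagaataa
Gm12603 (Wincr1): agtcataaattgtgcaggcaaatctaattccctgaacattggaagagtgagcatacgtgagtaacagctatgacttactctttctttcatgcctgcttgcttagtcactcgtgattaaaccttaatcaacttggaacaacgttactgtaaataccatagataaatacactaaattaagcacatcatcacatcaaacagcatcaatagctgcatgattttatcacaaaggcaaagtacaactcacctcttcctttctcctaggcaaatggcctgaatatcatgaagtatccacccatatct
None of the 5 motifs searched was found in the window of Gm12603, and no motif was shared by all 5 windows of the lincRNAs that were lower.

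The 1 lincRNA that was higher with antibody was 1010001N08Rik, named Gata6os in RefSeq, which starts 57 bases from Gata6, an endoderm transcription factor gene. It was at 3.21, 3.74, 2.37 and 2.75 CPM with antibody and 2.02, 1.50, 2.53 and 1.50 CPM without. The arms overlapped, as antibody replicate 3 lay below replicate 3 without antibody. The rise was 1.61-fold (log2 fold change 0.69 ± 0.21 (SE), adjusted p = 0.0489, edgeR). Gata6 was at 52.95, 53.9, 51.5 and 47.2 CPM with antibody and 44.9, 50.2, 49.5 and 49.5 CPM without. It was not called (log2 fold change 0.08 ± 0.06, adjusted p = 0.447). The call of 1010001N08Rik held in 3 of the 8 fits without 1 library and was lost without antibody replicate 1, 2 or 4 (adjusted p 0.115, 0.187 and 0.0726) and without replicate 2 or 4 of the other arm (0.120 and 0.148). It was also lost with DESeq2 (adjusted p = 0.0750) and limma voom (0.0548), and this RNA overlaps Gata6 on the other strand.

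**Figure D3:**
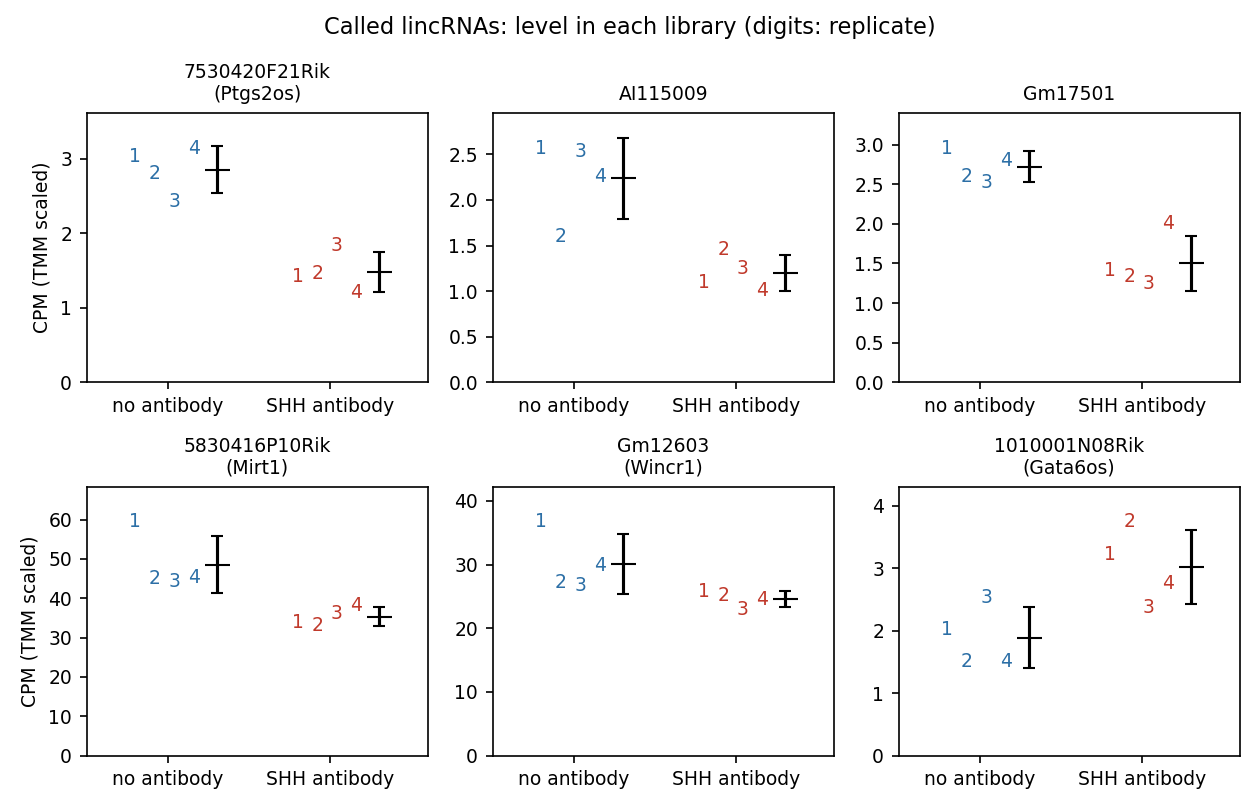
Level of the 6 called lincRNAs in TMM-scaled CPM (y axis, from 0) in each library, with digits for the replicate number, in the arms without and with antibody (x axis). Black marks are the mean ± SD of 4 libraries. The first 5 panels show lincRNAs that were lower with antibody, with no overlap of the arms, and the last shows 1010001N08Rik, which was higher with overlapping arms.

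Of the 6 called lincRNAs 4 had a protein-coding gene within 10 kb, and in 3 of the 4 that gene was called too and moved the same way, as given above for Ptgs2, Cyr61 and Ak5. Of all 143 lincRNAs 112 had a protein-coding gene within 10 kb, and 98 of these genes were tested. Among them 11 were called (11.2%), where 8.93% of all protein-coding genes tested and 8.4% of all genes were. Within 50 kb the figures were 133 lincRNAs, 116 genes tested and 12 called (10.3%). The other 8 called genes within 10 kb lay beside lincRNAs that were not called. They were Slc3a2 beside Snhg1 (log2 fold change of the protein-coding gene -0.36), Setd1b beside AI480526 (0.29), Slc20a2 beside Gm17491 (-0.18), Epb4.1l4a beside 2410004N09Rik (-0.25), Pdx1 beside Gm27033 (0.20), Slc44a3 beside A530020G20Rik (0.45), Hnrnpr beside Gm17388 (0.17) and Herpud1 beside Gm15889 (-0.34).

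Head-to-head pairs, in which the lincRNA and the protein-coding gene start within 1000 bases of each other on opposite strands, numbered 47, with a median of 185 bases between the starts. In 45 of them the protein-coding gene was tested, and 5 of these were called (11.1%), against 8.93% of all protein-coding genes tested. The lincRNA was called in 3 and both genes in 2, the pairs of Ptgs2 and Cyr61. In 22 of the 45 pairs the 2 fold changes had the same sign. The plot of the pairs shows both named pairs far from the rest. Snhg1 and Slc3a2, the heavy chain of amino acid transporters, lie in such a pair, and Slc3a2 was called lower (log2 fold change -0.36) while Snhg1 was not called (-0.11 ± 0.09, adjusted p = 0.524). A530020G20Rik stood at -0.23 and was not called, beside Slc44a3, which was higher (0.45).

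**Figure D4:**
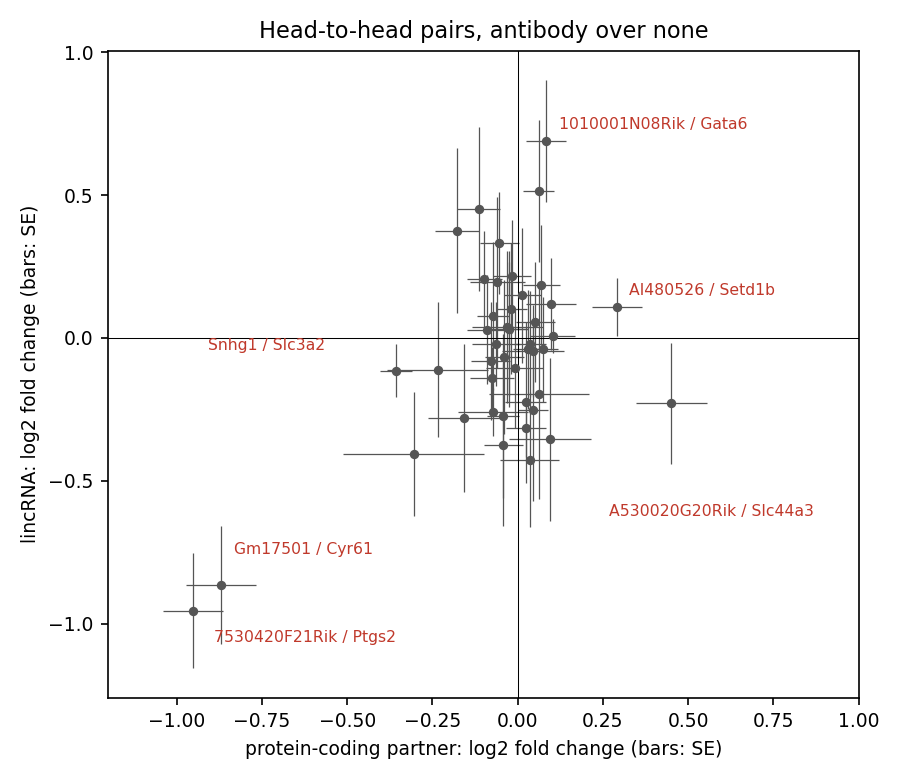
Log2 fold change of the lincRNA (y axis) against that of its protein-coding partner (x axis), antibody over none, with standard errors, for the 45 head-to-head pairs in which both were tested. Pairs with a called gene are named. The Ptgs2 and Cyr61 pairs lie at -0.95 and -0.87 on both axes, and 1010001N08Rik stands at 0.69 against 0.08 for Gata6.

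Roles were assigned to 27 of the 143 lincRNAs by lists of names, and 3 of the 27 were called, where 8.4% of all genes tested were. A listed role is not always a known one. 5830416P10Rik, 4833407H14Rik and 1600020E01Rik were listed as microRNA hosts but contain no microRNA gene by the listed coordinates. Dio3os, which does contain one, is in no list. The lists below are too small to read a share from. The RNAs of nuclear architecture came first by level, and 0 of 6 were called in edgeR's test or with DESeq2, while 1, Neat1, had an unadjusted p under 0.05. Xist, which coats the inactive X chromosome, was at 1638, 1934, 1844 and 1822 CPM with antibody and 2327, 1537, 1559 and 1901 CPM without (log2 fold change -0.02 ± 0.09 (SE), adjusted p = 0.942, edgeR). Neat1, the scaffold of paraspeckles, was at 1279.5, 1396, 1325 and 1340.4 CPM with antibody and 2003, 1287, 1257 and 1585 CPM without (log2 fold change -0.20 ± 0.10 (SE), adjusted p = 0.233, edgeR). Malat1, an RNA of nuclear speckles, was at 702, 708, 625 and 785 CPM with antibody and 879, 505, 575 and 724 CPM without (log2 fold change 0.07 ± 0.11 (SE), adjusted p = 0.772, edgeR). For all 3 the arms overlapped and replicate 1 without antibody held the highest value of all 8 libraries. Without that library Malat1 was called higher (log2 fold change 0.23, adjusted p = 0.0492), Xist stood at 0.12 (adjusted p = 0.205) and Neat1 at -0.05 (adjusted p = 0.674). Gm26924 was at 1849, 1735, 1929 and 2377 CPM with antibody and 1701, 1817, 2312 and 2084 CPM without, with its highest value in antibody replicate 4. Ftx (-0.15 ± 0.09) and Jpx (-0.23 ± 0.17), which lie in the X inactivation centre, and 1700020I14Rik (0.08 ± 0.06), the conserved Cyrano RNA, were not called.

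None of the 8 hosts of small nucleolar RNAs was called by edgeR or DESeq2, and 1 of them, 2810008D09Rik (Snhg20 in RefSeq), had an unadjusted p under 0.05. The hosts make snoRNAs, which guide the modification of ribosomal RNA, from their introns. Snhg1 was at 111, 116, 99.5 and 121 CPM with antibody and 158, 105, 104 and 116 CPM without. Snhg5 was at 51.3, 53.9, 51.4 and 51.6 CPM with antibody and 63.8, 47.7, 45.9 and 54.2 CPM without. Snhg6 was at 34.1, 32.8, 29.0 and 34.6 CPM with antibody and 52.2, 28.9, 30.4 and 35.7 CPM without. In all 3 the arms overlapped and replicate 1 without antibody was the highest library. Their log2 fold changes were -0.11 ± 0.09, -0.03 ± 0.08 and -0.19 ± 0.12, and without that library they were above 0, at 0.04, 0.07 and 0.03, and still not called. The log2 fold changes of the other 5 (Snhg12, Snhg20, Snhg7, Snhg4 and 2410004N09Rik) lay between -0.20 and 0.08. By position in the files 12 of the 143 lincRNAs contain a snoRNA gene, 0 of them called by edgeR or DESeq2 and 1, again 2810008D09Rik, with an unadjusted p under 0.05, and their log2 fold changes ran from -0.22 to 0.21.

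The list of microRNA hosts took in 6 members, of which only 5830416P10Rik was called. Neither it nor 4833407H14Rik or 1600020E01Rik contains a microRNA gene by the coordinates of the files. 5830416P10Rik and 4833407H14Rik both matched the listed name Mirt1 through RefSeq, though GENCODE M21 gives that name to 5830416P10Rik and not to 4833407H14Rik. 1600020E01Rik was listed under its own symbol, which names no microRNA. Mir17hg, the host of the miR-17-92 cluster that is known to promote growth, was at 12.0, 15.8, 17.5 and 14.1 CPM with antibody and 19.5, 11.1, 14.5 and 12.9 CPM without (log2 fold change 0.03 ± 0.13 (SE), adjusted p = 0.941, edgeR). Gm26667, the host of miR-155, was at 1.99, 3.17, 2.43 and 1.88 CPM with antibody and 2.10, 1.50, 1.78 and 1.64 CPM without (log2 fold change 0.43 ± 0.22 (SE), adjusted p = 0.275, edgeR). In both the arms overlapped. 1600020E01Rik, which starts 100 bases from Pcbp1, was at 11.5 ± 1.21 CPM with antibody and 14.2 ± 1.76 CPM without (SD, n = 4) and missed the threshold (log2 fold change -0.31 ± 0.10 (SE), adjusted p = 0.0649, edgeR), with adjusted p from 0.0362 to 0.181 over the alternatives. It passed without antibody replicate 4 (adjusted p = 0.0486) and when replicate 4 without antibody was left out (0.0402). In all, 7 of the 143 lincRNAs contain a microRNA gene, with log2 fold changes from -0.56 to 0.43 and 0 calls by edgeR or DESeq2. The 1 of them with an unadjusted p under 0.05 was Dio3os, which holds Mir1247 in the imprinted Dlk1-Dio3 region. Dio3os was at 19.3, 18.5, 20.7 and 20.8 CPM with antibody and 24.99, 25.7, 24.8 and 19.9 CPM without (log2 fold change -0.26 ± 0.08 (SE), adjusted p = 0.0599, edgeR). The arms overlapped only through replicate 4 without antibody, and without that library Dio3os was called lower.

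Of the 6 members linked to p53, stress or growth only 7530420F21Rik was called. Pvt1, a lincRNA beside the Myc oncogene that is often amplified with it, was at 17.9, 17.3, 15.98 and 17.1 CPM with antibody and 24.2, 19.3, 16.8 and 20.5 CPM without. The arms overlapped only through replicate 3 without antibody, and Pvt1 was not called (log2 fold change -0.25 ± 0.09 (SE), adjusted p = 0.101, edgeR), but it passed when that library was left out (-0.33, adjusted p = 0.0284). Without replicate 1 of that arm its value was smaller, -0.15 (adjusted p = 0.286), and without replicates 1 and 4 it was -0.08 (0.634). Myc, 47612 bases away, was called lower (log2 fold change -0.51 ± 0.05). 4933436C20Rik, known as Crnde for its rise in colorectal tumours, stood at -0.10 ± 0.18 and Gm26532 at 0.14 ± 0.17, neither called.

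Beside transcription factors of the endoderm lie 1010001N08Rik, described above, and 9030622O22Rik, next to Foxa2. 9030622O22Rik was at 12.8, 15.2, 12.8 and 13.7 CPM with antibody and 14.5, 9.61, 10.2 and 11.2 CPM without. Replicate 1 without antibody lay among the antibody libraries, and the other 3 below all of them. It was not called (log2 fold change 0.25 ± 0.11 (SE), adjusted p = 0.202, edgeR), but passed without replicate 1 (0.39, adjusted p = 0.0144). Foxa2 was not called (log2 fold change -0.02). Of the genes listed as lincRNA that were later given a small protein, 1500011K16Rik, which encodes the mitochondrial microprotein mitoregulin, stood at -0.14 ± 0.12 and 1810058I24Rik at 0.16 ± 0.06, both not called. 1810058I24Rik was at 43.5, 46.1, 48.9 and 44.7 CPM with antibody and 38.1, 45.4, 41.8 and 38.8 CPM without, with overlapping arms, and of the 20 alternatives it passed only without replicate 2 of the second arm (adjusted p = 0.0445, and up to 0.534 in the others).

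**Figure D5:**
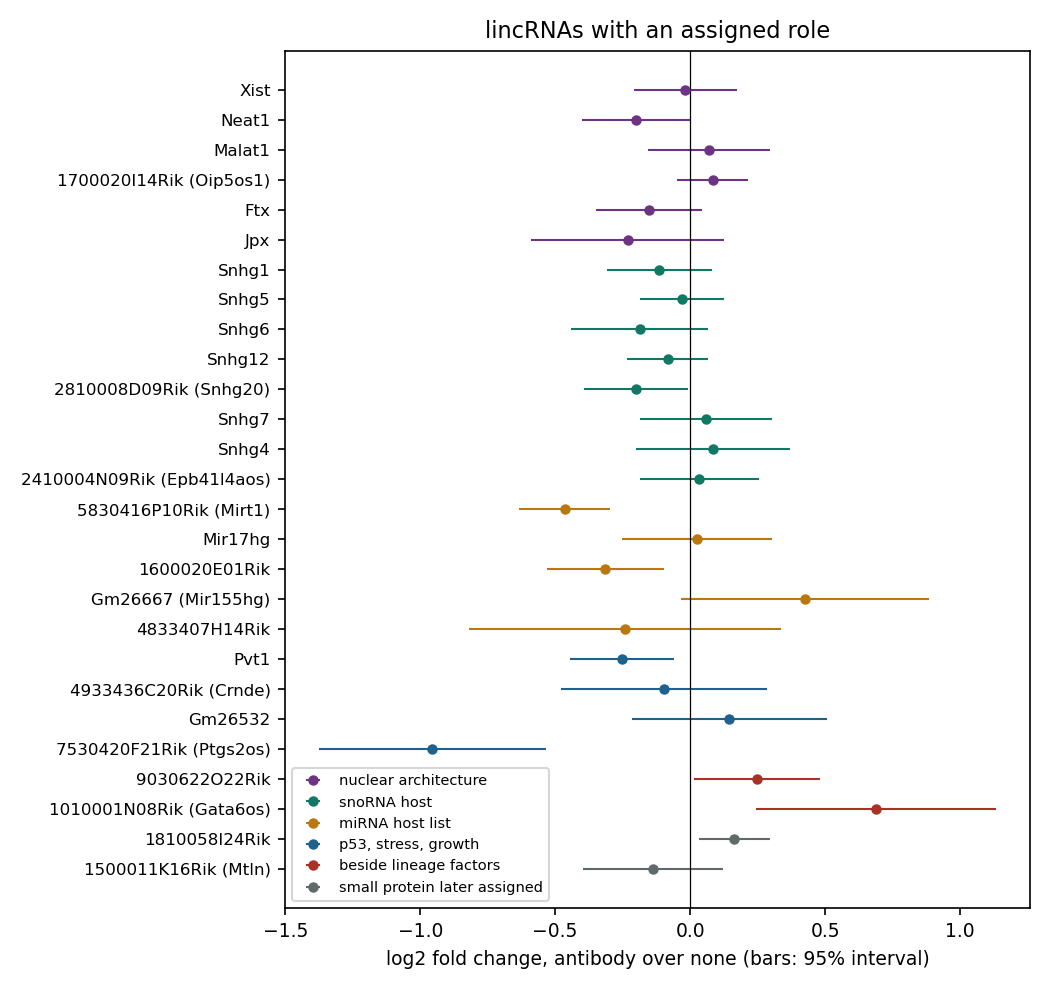
Log2 fold change, antibody over none, with 95% intervals (x axis) for the 27 lincRNAs in a role list (y axis), coloured by list and ordered by level within it. Of the microRNA host list 5830416P10Rik, 4833407H14Rik and 1600020E01Rik contain no microRNA gene. Those of 5830416P10Rik, 7530420F21Rik and 1010001N08Rik passed the threshold after adjustment over all genes, and the intervals of most others include 0.

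The other 116 lincRNAs carry no role in the lists, and 3 of them, AI115009, Gm17501 and Gm12603, were called, all lower. Those not called numbered 113, with log2 fold changes from -0.61 (D830044D21Rik) to 0.58 (Gm17388), a median of -0.00 and 7 with an unadjusted p under 0.05. D830044D21Rik was at 0.835, 1.08, 1.25 and 1.07 CPM with antibody and 2.18, 1.10, 1.59 and 1.50 CPM without, with an overlap of the arms at about 1.1 CPM. Among the abundant ones, B230354K17Rik was at 48.2 ± 1.31 CPM with antibody and 47.8 ± 3.70 CPM without (SD, n = 4), a log2 fold change of 0.01 ± 0.06. Gm13387 was at 40.4 ± 1.82 and 45.2 ± 3.84 CPM (log2 fold change -0.17 ± 0.06 (SE), adjusted p = 0.114, edgeR) and 4930461G14Rik at 41.1 ± 0.755 and 43.5 ± 2.52 CPM (log2 fold change -0.08 ± 0.06 (SE), adjusted p = 0.473, edgeR).

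The role lists also held 49 noncoding or once noncoding genes outside the rule, by biotype or level, of which 18 were tested and 12 had no count. Gm26917, beside Gm26924 and the ribosomal RNA annotation opposite it, was called higher (41.3 against 32.9 CPM, log2 fold change 0.34 ± 0.08, adjusted p = 0.0101, edgeR). 2610203C20Rik was called lower (242 against 331 CPM, log2 fold change -0.46 ± 0.09, adjusted p = 0.00268, edgeR). Gas5 (-0.11) and Tug1 (0.03) were not called. Of the imprinted RNAs, H19 had 5 counts and Meg3 and Mirg 1 each over all 8 libraries, while Airn, typed as antisense in the files, had a mean of 4.45 CPM and was not called (log2 fold change -0.29 ± 0.17). Of the 24 proteins of paraspeckles and speckles, which bind Neat1 and Malat1, all were tested by their RNA. EdgeR called 2 of them (8.33%), where 8.4% of all genes tested were called. DESeq2 called 3, and 6 had an unadjusted p under 0.05 in edgeR's test. Hnrnpm was higher (log2 fold change 0.24) and Srrm2 lower (-0.17). Sfpq (0.14, adjusted p = 0.0586, edgeR) and Matr3 (0.15, adjusted p = 0.103, edgeR) were not called by edgeR. Of the 32 tested genes of the nuclear exosome, RNA decay and noncoding RNA processing, 0 were called by edgeR or DESeq2. In edgeR's test 5 had an unadjusted p under 0.05, with Dicer1 at 0.14, Upf2 at 0.13, Exosc1 at -0.16 and Smg1 at 0.12 among them.

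RefSeq start windows were found for 89 of the 143 lincRNAs and were searched on both strands for 5 motifs, of which AP-1, CRE and the E-box read the same on either strand and none contains another. The CRE letters TGACGTCA stood in 7 of the 89 (7.87%), against 1.78% of all 27025 RefSeq windows of that length. Those 7 were B230354K17Rik, 1300002E11Rik, 6030443J06Rik, C030037D09Rik, Gm14321, Gm4262 and 4930558J18Rik, and none was called. Among them B230354K17Rik (Cdc5l), 6030443J06Rik (Orc5), C030037D09Rik (Msi2) and 4930558J18Rik (1700066M21Rik) are in head-to-head pairs with the protein-coding gene in brackets. The AP-1 letters TGANTCA stood in 6 (6.74%, all windows 7.91%), the E-box CACGTG in 8 (8.99%, all windows 7.09%), the TEAD letters GGAATG in 16 (17.98%, all windows 14.6%) and the ATF4 element TGATGNAA in 2 (2.25%, all windows 4.07%). These shares describe the windows and were not tested.

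The class itself has changed since the table was made. In GENCODE M21, which uses the same build, 87 of the 143 are still typed as lincRNA, 18 as antisense, 16 as processed transcript and 6 as bidirectional promoter RNA, 2 as protein coding, and 8 identifiers are absent. In the files 44 of the lincRNAs overlap another gene on the other strand and 14 on the same strand. With the genes of M21 added 91 overlap some gene and 52 none. Of the called lincRNAs Gm12603, 7530420F21Rik and Gm17501 are among the 52, so by these annotations no other gene covers their bodies.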

How the data were processed

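Per the labels' protocols, polyA RNA of sorted cells went into strand-specific libraries read from both ends. CASAVA 1.8.2, TopHat2 2.0.9 and GRCm38 (mm10) are named in the submitters' processing notes. How genes were counted, with which annotation release and strand setting, is not given in the sources used here. In their series the authors deposited raw counts per gene, with biotype and coordinates, and RPKM values of the same 8 libraries, which are counts per gene length and column total.

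Arms were taken from the treatment in the labels, 4 libraries each, and in the titles "minus" marks the libraries with antibody. The test across all genes was that of edgeR 4.0.16 under R 4.3.3 (TMM, filterByExpr, quasi-likelihood test, Benjamini-Hochberg adjustment at 0.05 over 13626 genes). The arm was the only term. Of the genotype, 1 allele that both arms carry is not reported here. CPM values are TMM-scaled, except in the rule of 1 CPM, which uses column totals. Levels per length use the mean deposited RPKM. Neighbours are the nearest protein-coding gene bodies by the listed coordinates, and motifs were searched in RefSeq start windows of GRCm38.p6. Named are the called lincRNAs with their nearest protein-coding gene, the 12 of highest level, those in role lists, the 3 on either side of the level, and in each list of proteins or markers those with the smallest p. The other neighbours, Gm16740, Dio3os, D830044D21Rik, Gm17388, the lincRNAs gained in alternatives and those with CRE letters were named after their values were seen. So were the markers Col1a1, Col1a2, Pdgfrb, Cldn4, Sox9, Krt18, Esrp1 and Cdh1. The members, lists and alternatives were chosen with earlier results of these data known. P-values measure the spread between these libraries, and intervals and floors in counts cover counting error only where they are not from the fit.

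Alternatives were RLE and upper quartile scaling, column totals alone, no filter and a stricter filter, DESeq2 1.42.0, limma 3.58.1 voom, log2(RPKM + 1) and log2(RPKM + 0.1) with limma, thinning to the smallest total, a replicate block, leaving out libraries, other levels for the rule, members without overlaps and neighbours within 50 kb. Thinning was a single random draw, so its spread between draws is not known. The procedure was tested on simulated counts. Between libraries of the same arm chi-square over its degrees of freedom was 1.68 to 10.5, more than counting noise gives.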

Additional observations from a re-analysis of the deposited data

Results flagged for a closer look

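Of 72 sets of 4 libraries checked (the named lincRNAs and the summed shares in each arm), 3 held a library far from the other 3, and chance gives about 1 in 20. For 5830416P10Rik it was replicate 1 without antibody, at 59.5 CPM, while the other 3 lay between 44.4 and 45.3 CPM. For Snhg5 it was antibody replicate 2, at 53.9 CPM, while the other 3 lay between 51.3 and 51.6 CPM. For 4930461G14Rik, a lincRNA with no assigned role, it was replicate 4 without antibody, at 39.7 CPM, while the other 3 lay between 44.5 and 45.1 CPM.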

How the results depend on the processing

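The call of 5830416P10Rik was made in all 20 alternative fits, that of 7530420F21Rik in 19, those of Gm17501 and AI115009 in 18 each, that of Gm12603 in 10 and that of 1010001N08Rik in 8. No lincRNA was called higher with DESeq2, limma voom, upper quartile scaling, log2(RPKM + 1), log2(RPKM + 0.1) or a replicate block, or among the lincRNAs without overlaps, so that count was 0 in each. It was 7 without replicates 1 and 4 of the arm without antibody, and from 0 to 4 in the fits without 1 library. The count called lower was 8 with no filter on low counts, which added Neat1, Dio3os and 1600020E01Rik, 2 after thinning to the smallest total, 3 without overlaps and 3 without replicates 1 and 4. In that last fit Xist turned from -0.02 to 0.22 on the log2 scale and was called (adjusted p = 0.00035, edgeR), as were Malat1 (0.38, 5.57e-06), 1700020I14Rik (0.21, 0.00552) and Snhg4 (0.47, 0.00320). Fewer libraries entered it, and those kept without antibody are the most alike of that arm, so the spread was small by that choice. Its adjusted p cannot be read like those of the other fits, and the cause was not tested. After thinning, a single random draw, 1 called lincRNA kept a called neighbour. Without Gm26924 the lincRNA share was 0.511% with antibody and 0.53% without. Over all genes 1144 calls became 675 with log2(RPKM + 1), 670 with log2(RPKM + 0.1), from 679 to 1485 without 1 library and 2262 without replicates 1 and 4. The median log2 fold change of the lincRNAs stayed between -0.06 and 0.04. Replicate numbers did not pair the arms (correlations of same-numbered libraries -0.04, -0.04, 0.01 and 0.02). With the replicate number as a block 1005 genes and 5 lincRNAs were called, 0 higher and 5 lower, and 1010001N08Rik was lost. The median standard error of the lincRNAs was 0.27 on the log2 scale from 1 to 2 CPM and 0.09 at 20 CPM and above.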
